A study of Mus musculus with 6 samples.

Results

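Endothelial cell genes were read out in the renal cortex of mice on a steatohepatitis diet with and without an SGLT2 inhibitor. The set held 32 genes, taken by symbol from the 24346 genes of each deposited table because their transcripts are widely used to mark blood vessel endothelium, and the rule uses no measured value. All 32 were listed with a value above 0 in every library. Of these, 30 had at least 1 FPKM (fragments scaled to transcript length and to the total mapped) in at least 3 of the 6 libraries, which was the condition for testing, as did 12248 genes in all. Vwf and Tal1 lay under that limit.

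The cortex came from C57BL/6 mice given, for 8 weeks, the diet that the labels abbreviate HF/HC/HS/BA and that holds much fat and cholesterol and bile salt. For 3 mice it was mixed with tofogliflozin, which blocks the sodium-glucose cotransporter SGLT2 of the proximal tubule, and for 3 mice it was not. The library titles call these mice NASHTofo and NASH. All 6 animals therefore carried the diet, mice on standard chow were not analysed here, and no label gives age, sex or drug dose. The comparison asks what the drug did to the cortex of mice on this diet. These are bulk libraries of whole cortex, so fewer endothelial cells and less of a transcript per cell cannot be told apart.

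Endothelial cells line the glomerular capillaries, which filter plasma, the peritubular capillaries, which take up what the tubules reabsorb, and the arteries and veins. They are held together by the cadherin Cdh5 and by claudins, receive VEGF made by podocytes and tubule cells through the receptors Kdr and Flt1, and receive angiopoietins from mural cells through Tek. ETS factors such as Erg and Fli1 and SOX factors such as Sox17 and Sox18 maintain the endothelial gene programme. Several of the 32 genes are also made elsewhere: Nrp1 by podocytes, Ednrb by collecting duct cells, Cd34 and Tal1 by blood cell progenitors, Fli1 and Icam2 by leukocytes and Vwf by platelets.

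Promoters of 19 of the 32 genes were held in the RefSeq table of the GRCm38.p6 build, in 24 windows of 300 bases around a transcript start. Each window was searched on both strands for the ETS core letters CCGGAA and CAGGAA and the SOX core letters AACAAT, chosen because 4 of the 5 transcription factors of the set belong to these families. CAGGAA was found in 13 of the 24 windows (54.2%), which belong to 12 genes, against 30.6% of all 32851 windows of that length. CCGGAA was found in 2 windows (8.33%), against 14.9% of all. At least 1 of these ETS cores stood in 15 windows (62.5%) of 14 genes, against 41.4% of all windows, and AACAAT stood in 4 (16.7%), against 10.7% of all. A match describes the letters only and shows no binding, and a window without one shows nothing about these factors. The windows of Ednrb (chr14:103843652-103843951, minus strand) and Ramp3 (chr11:6658283-6658582, plus strand) are shown because, among the members with an entry, these genes had the highest and the lowest log2 change between the groups. The window of Calcrl (chr2:84425217-84425516, minus strand) is shown because its product pairs with that of Ramp3, and the window of Tek (chr4:94739039-94739338, plus strand) because it holds ETS and SOX letters that overlap. Capitals mark the matches on either strand.
Ednrb: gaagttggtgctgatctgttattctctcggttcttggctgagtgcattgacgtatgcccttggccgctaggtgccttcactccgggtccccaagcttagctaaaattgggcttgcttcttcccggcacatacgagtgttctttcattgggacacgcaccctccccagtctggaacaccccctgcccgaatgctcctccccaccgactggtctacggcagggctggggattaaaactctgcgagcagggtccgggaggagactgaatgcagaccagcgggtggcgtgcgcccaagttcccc
Ramp3: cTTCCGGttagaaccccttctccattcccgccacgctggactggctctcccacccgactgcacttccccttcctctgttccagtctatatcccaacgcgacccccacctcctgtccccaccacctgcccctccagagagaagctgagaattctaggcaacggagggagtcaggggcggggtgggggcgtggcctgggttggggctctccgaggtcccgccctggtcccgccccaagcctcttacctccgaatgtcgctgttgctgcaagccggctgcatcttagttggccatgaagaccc
Calcrl: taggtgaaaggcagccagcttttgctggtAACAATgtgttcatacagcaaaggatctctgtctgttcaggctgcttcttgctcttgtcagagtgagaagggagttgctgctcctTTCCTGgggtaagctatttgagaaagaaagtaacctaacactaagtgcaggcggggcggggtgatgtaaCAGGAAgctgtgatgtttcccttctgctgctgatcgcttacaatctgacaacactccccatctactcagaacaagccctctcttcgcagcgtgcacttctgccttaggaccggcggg
Tek: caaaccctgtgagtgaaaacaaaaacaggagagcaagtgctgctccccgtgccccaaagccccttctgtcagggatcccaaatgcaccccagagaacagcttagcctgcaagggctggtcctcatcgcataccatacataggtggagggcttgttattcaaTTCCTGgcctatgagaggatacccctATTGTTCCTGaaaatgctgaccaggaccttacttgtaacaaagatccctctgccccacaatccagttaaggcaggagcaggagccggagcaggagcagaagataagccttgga
The Ednrb window held none of these letters and the Ramp3 window held 1 CCGGAA. Those of Calcrl and Tek each held 2 CAGGAA and 1 AACAAT, and in Tek the SOX core and 1 ETS core share letters.

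The libraries differed little as a whole. Totals lay between 597459 and 629605 FPKM in tofogliflozin mice and between 565754 and 633338 FPKM in diet mice, and correlations of log2 values between libraries ran from 0.98 to 0.99. The files hold no fragment counts. Steps between low FPKM values put the relative depth within 1.29-fold of each other, highest in tofogliflozin replicate 1, with approximate totals from 7800000 to 10000000 fragments. Proximal tubule markers summed to between 3601 and 3754 FPKM with tofogliflozin and to between 3735 and 4169 FPKM on the diet. Slc34a1 alone averaged 2186 FPKM with tofogliflozin and 2499 FPKM on the diet. Of the 8 proximal genes, 4 were above 0 and 4 below, with a median log2 change of -0.06. An unadjusted p under 0.05 (limma) was reached by 2 higher and 1 lower (6.7% and 6.39% of all genes tested). Groups did not overlap in 2 (25%), both higher with tofogliflozin, against 18.5% of all genes and 9.63% in that direction. None passed the adjusted threshold. Medulla markers summed to between 284 and 336 FPKM in tofogliflozin cortex and to between 220 and 373 FPKM in diet cortex. Distal nephron markers summed to between 2434 and 2583 FPKM in tofogliflozin cortex and to between 2121 and 2803 FPKM in diet cortex. Of these 8 genes, 7 were above 0 and the median log2 change was 0.28. An unadjusted p under 0.05 (limma) was reached by 4, all higher, against 13.1% of all genes tested and 6.7% in that direction. The groups did not overlap in 3 (37.5%), all higher with tofogliflozin, against 18.5% of all genes and 9.63% in that direction. None passed the adjusted threshold. The marker lists were chosen with earlier results of these data known, so these shares test nothing. Lymphatic endothelial markers were low, between 8.29 and 9.86 FPKM in tofogliflozin cortex and between 8.75 and 9.94 FPKM in diet cortex, and Lyve1 among them was listed at 0 in 3 libraries. Summed erythroid markers varied widely in both groups, with 29.5 to 90.0 FPKM in tofogliflozin mice and 15.9 to 129 FPKM in diet mice. Summed leukocyte markers were between 77.6 and 90.2 FPKM in tofogliflozin mice and between 82.8 and 176 FPKM in diet mice, the highest in diet replicate 2. All 9 tested leukocyte markers had a log2 change below 0, with a median of -0.44, and none passed the adjusted threshold. The groups did not overlap in 1 of them, Csf1r (11.1%, against 18.5% of all genes tested and 8.86% in that direction). Csf1r had 13.4, 15.6 and 11.1 FPKM with tofogliflozin against 17.5, 20.2 and 17.7 FPKM on the diet (limma unadjusted p = 0.00619).

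Endothelial genes as a group stood at about the same level in both groups of mice. None of the 30 tested genes passed the adjusted threshold of 0.05 (limma with Benjamini-Hochberg adjustment over all 12248 genes), against 0.253% of all genes tested, 24 of them higher and 7 lower with tofogliflozin. The log2 change, tofogliflozin minus diet on the log2(FPKM + 1) scale, had a median of 0.02 over the 30 genes and of -0.00 over all genes. It was above 0 in 16 of 30 (53.3%), against 49.7% of all genes. The genes furthest apart were Ednrb, higher with tofogliflozin, and Ramp3 and Sox18, lower with tofogliflozin, and these 3 had an unadjusted p under 0.05. They are 10% of the members, 1 higher and 2 lower, against 13.1% of all genes tested, 6.7% higher and 6.39% lower. Single values of the groups did not overlap in 6 of 30 members (20%), against 18.5% of all genes. Of these 6, Ednrb, Flt1, Nos3 and Ptprb were higher (9.63% of all genes were) and Cdh5 and Sox18 lower (8.86% of all genes were). All of these shares lie near those of all genes and are no result about the members.

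The data bound how far most members could have moved. The 95% interval of the log2 change lay within 0.5 of 0 in 25 of the 30 genes and held 0 in 27. Its half-width had a median of 0.24 and ran from 0.16 for Pecam1 to 0.41 for Calcrl. The lowest bound was -0.91, for Sox18, and the highest 0.65, for Calcrl. In 27 of the 30 genes the estimated change was under 0.25 in size. These bounds hold on the log2(FPKM + 1) scale, which understates changes of low genes. With 0.1 FPKM added in place of 1 FPKM, the estimates were 0.35 for Calcrl and 0.32 for Sox17. Each p-value sets the difference between the groups against the spread among 3 mice a group, which limma moderates with that of other genes.

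**Figure D1:**
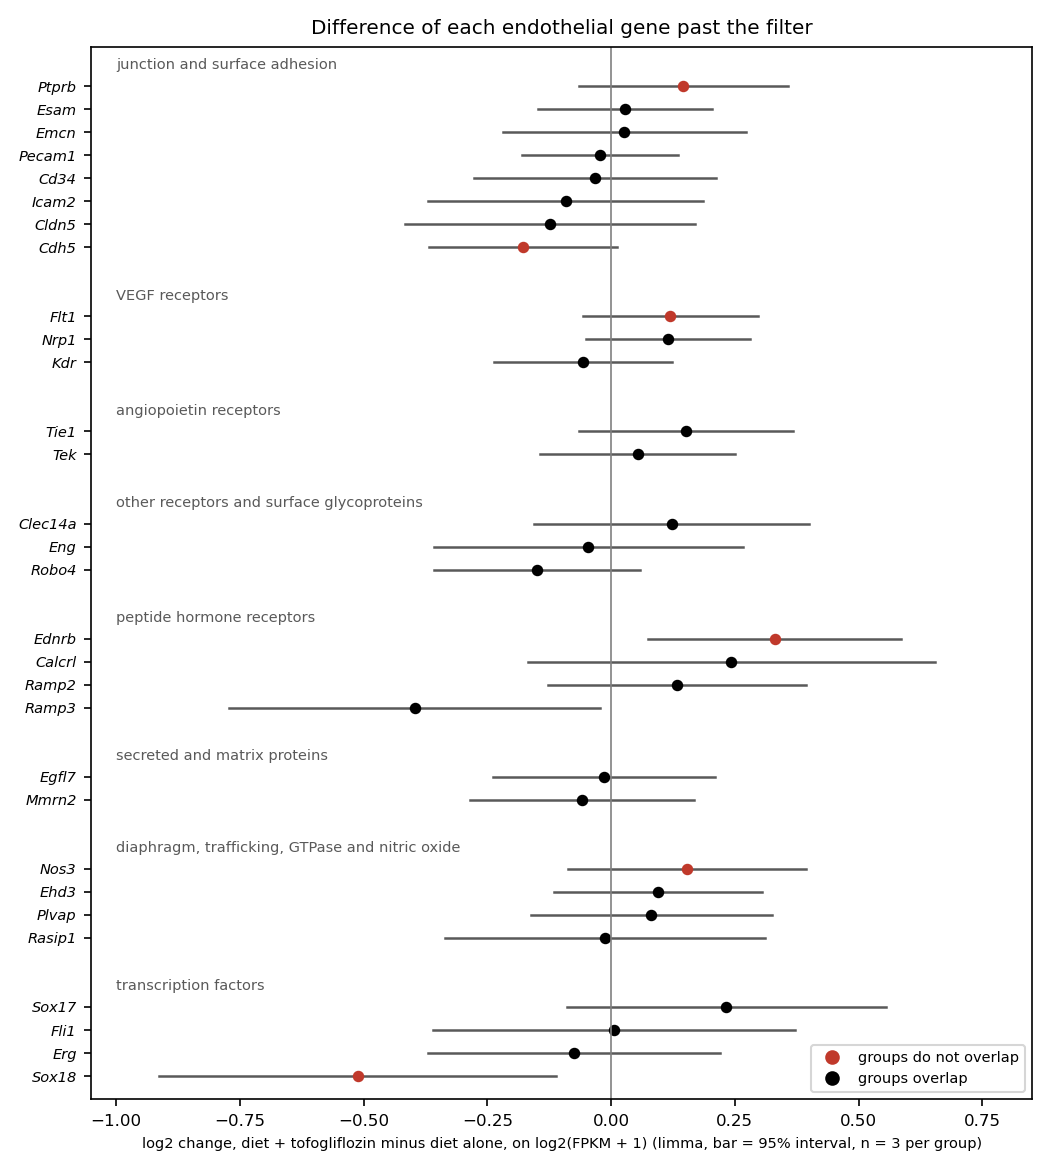
Log2 change of each of the 30 tested endothelial genes, tofogliflozin minus diet on the log2(FPKM + 1) scale (x axis), grouped by role (y axis); points are limma estimates, bars 95% intervals, n = 3 mice per group, and red points mark genes whose groups did not overlap. The intervals of 27 genes hold 0, and those of Ednrb, Ramp3 and Sox18 do not.

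FPKM is a value per transcript length, so levels can be set beside each other. Plvap, which forms the diaphragms of fenestrated peritubular capillaries, had the highest level, with a mean of 76.6 ± 7.64 FPKM (SD over 6 libraries). Emcn, an endothelial sialomucin, followed with 39.9 ± 3.84 FPKM. Egfl7 averaged 31.2 ± 2.58 FPKM and Eng 27.9 ± 3.50 FPKM, and their ranges over the libraries overlapped. Below them, Ramp3, Pecam1, Nrp1, Ramp2, Kdr, Esam, Tie1 and Ehd3 formed a run of overlapping neighbours with means from 17.3 down to 12.8 FPKM. A further run of 12 genes went from Tek at 9.66 ± 0.615 FPKM to Rasip1 at 5.20 ± 0.744 FPKM, and a last one from Erg at 3.30 ± 0.429 FPKM to Sox17 at 2.2 ± 0.467 FPKM. Neighbours in this order differed beyond their ranges at 6 places: below Plvap, Emcn, Ehd3, Rasip1, Sox17 and Tal1. The highest and the lowest tested mean were 34.8-fold apart. Vwf, the clotting glycoprotein that larger vessels and platelets make, was the lowest of the 32, at 0.253 ± 0.0660 FPKM.

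**Figure D2:**
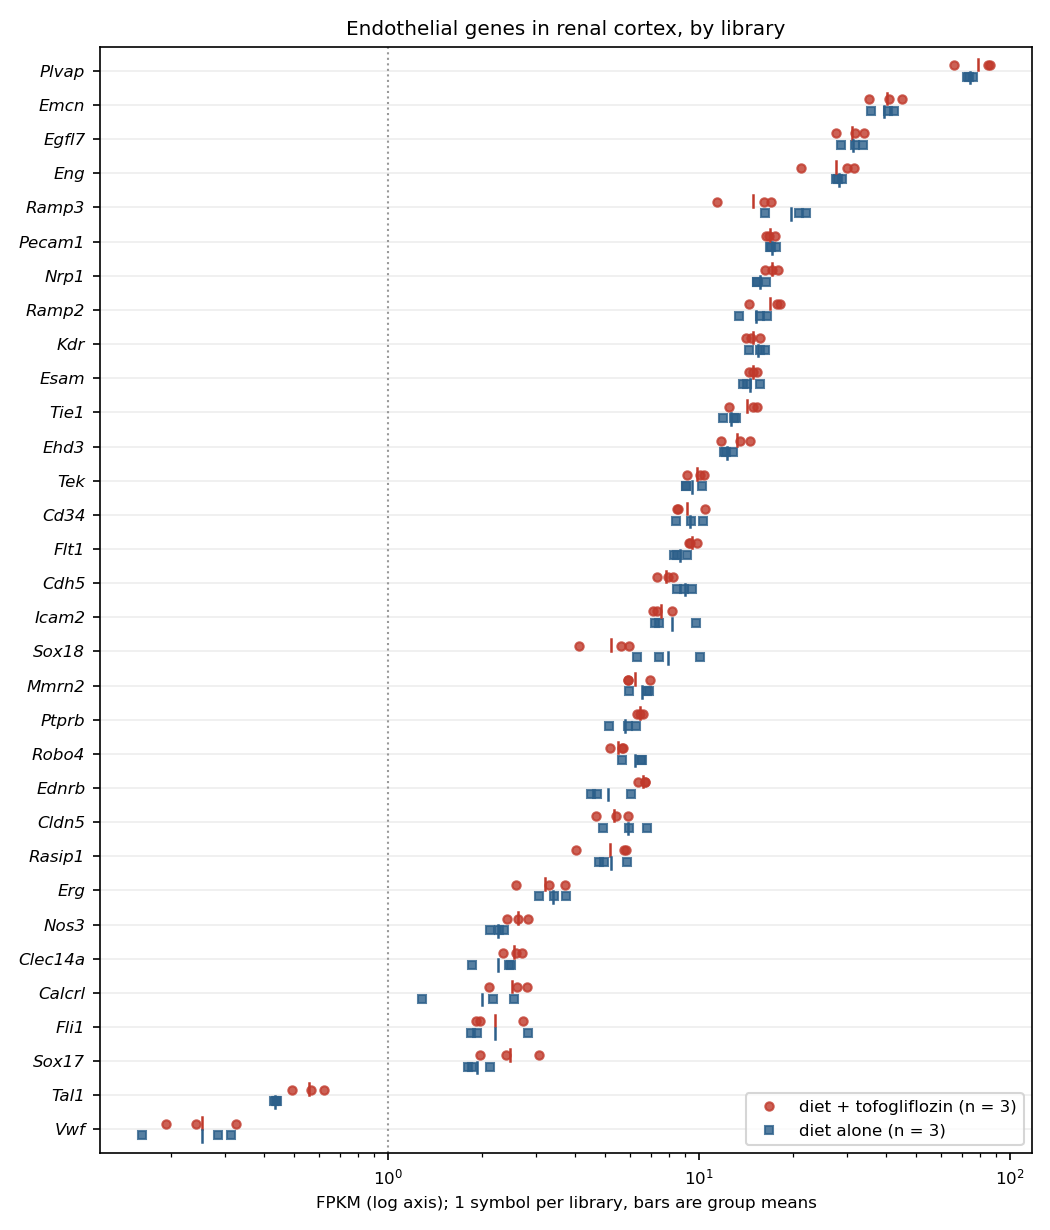
FPKM of the 32 endothelial genes (x axis, log scale) in order of their mean level (y axis); each circle is 1 tofogliflozin mouse, each square 1 diet mouse, and short bars are group means. Plvap lies at the top with 66.2 to 86.0 FPKM in tofogliflozin cortex and 72.7 to 76.3 FPKM in diet cortex, and Tal1 and Vwf lie under the dotted line at 1 FPKM.

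Junction and surface adhesion genes, 8 in number, were led by Emcn. Cdh5, the cadherin of endothelial junctions, had 7.93, 8.25 and 7.34 FPKM in tofogliflozin mice against 8.98, 9.51 and 8.51 FPKM in diet mice. Every tofogliflozin mouse was below every diet mouse, and the nearest of them were 0.258 FPKM apart. The means were 7.84 ± 0.459 FPKM with tofogliflozin and 9.0 ± 0.501 FPKM on the diet (SD, n = 3 each), a log2 change of -0.18 (interval -0.37 to 0.01 at 95%, adjusted p = 0.413 by limma). Ptprb, the phosphatase that acts on Tek and on Cdh5, ran the other way. It had 6.48, 6.32 and 6.63 FPKM with tofogliflozin against 5.91, 6.26 and 5.15 FPKM on the diet, without overlap, and a log2 change of 0.15 (limma adjusted p = 0.547), which was 0.08 without diet replicate 3. Pecam1, the adhesion molecule CD31, varied least of all members. Its values were 16.8, 17.5 and 16.4 FPKM with tofogliflozin and 17.7, 17 and 16.9 FPKM on the diet, a coefficient of variation of 2.80% over 6 libraries, and its interval for the log2 change was -0.18 to 0.13. Esam, another junction adhesion molecule, averaged 14.9 ± 0.436 FPKM with tofogliflozin and 14.6 ± 0.985 FPKM on the diet. Emcn had 45.1, 40.8 and 35.2 FPKM with tofogliflozin and 42.4, 40.4 and 35.7 FPKM on the diet, so that replicate 3 was the lowest in both groups. Cldn5, the claudin of tight endothelial junctions, averaged 5.32 ± 0.619 FPKM with tofogliflozin and 5.91 ± 0.953 FPKM on the diet, and Cd34, a capillary sialomucin, 9.16 ± 1.09 FPKM with tofogliflozin and 9.38 ± 0.909 FPKM on the diet. Icam2, an adhesion molecule that leukocytes also carry, had 8.19, 7.13 and 7.31 FPKM with tofogliflozin and 7.23, 9.82 and 7.44 FPKM on the diet. Its single high value was in diet replicate 2, the mouse with the highest leukocyte markers. The part of leukocytes in it was not tested. Without that mouse the log2 change of Icam2 was 0.03, against -0.09 with it.

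Among the VEGF receptors, Kdr, the main signalling receptor, had 15.7, 14.7 and 14.2 FPKM in tofogliflozin cortex against 14.5, 16.3 and 15.7 FPKM in diet cortex. The groups overlapped, and the log2 change was -0.06. Flt1, which binds VEGF tightly and limits what reaches Kdr, had 9.88, 9.26 and 9.35 FPKM with tofogliflozin against 8.49, 9.17 and 8.34 FPKM on the diet. Its groups did not overlap, the nearest mice were 0.0945 FPKM apart, and the log2 change was 0.12 (limma adjusted p = 0.557). Nrp1, a coreceptor of VEGF, averaged 17.1 ± 0.770 FPKM with tofogliflozin and 15.8 ± 0.594 FPKM on the diet. The angiopoietin receptor Tek had 10.4, 9.15 and 10.0 FPKM with tofogliflozin and 9.07, 10.2 and 9.12 FPKM on the diet, with a log2 change of 0.05. Its partner Tie1, an orphan receptor that modulates Tek, had 14.9, 15.3 and 12.5 FPKM with tofogliflozin and 12.0, 12.9 and 13.1 FPKM on the diet. In Tie1 tofogliflozin replicates 1 and 2 were above all diet mice and replicate 3 was inside their range, and the log2 change was 0.15 (limma adjusted p = 0.543). Without tofogliflozin replicate 3 it was 0.24 (limma unadjusted p = 0.0312), and without tofogliflozin replicate 2 it was 0.10.

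The ligands of these receptors are made largely by other cells of the cortex. They were looked at together with Apln, Slit2 and Slit3, which bind other receptors, as a list of 12 genes, 10 of them tested. None passed the adjusted threshold, 5 were above 0 and 5 below, and the median log2 change was 0.01. Vegfa had 140, 133 and 141 FPKM with tofogliflozin against 135, 137 and 155 FPKM on the diet. Its level was thus several times that of its receptors in every library, and the log2 change was -0.04 (limma adjusted p = 0.880). Angpt1, the activating ligand of Tek, averaged 4.20 ± 0.0778 FPKM with tofogliflozin and 4.03 ± 0.207 FPKM on the diet. Vegfb, a ligand of Flt1, averaged 43.4 ± 4.15 FPKM with tofogliflozin and 38.1 ± 4.23 FPKM on the diet. Apln, the ligand of the apelin receptor and a product of sprouting endothelium, had the lowest p of the list, with 0.800, 1.37 and 0.671 FPKM with tofogliflozin against 1.27, 2.30 and 1.46 FPKM on the diet. The values overlapped, and its log2 change was -0.46 (limma adjusted p = 0.376).

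Receptors for peptide hormones held the member with the highest log2 change. Ednrb (chr14:103814625-103844402, minus strand, GRCm38), the endothelin receptor that in endothelium releases nitric oxide and clears endothelin, had 6.72, 6.38 and 6.71 FPKM in tofogliflozin cortex against 6.05, 4.71 and 4.5 FPKM in diet cortex. All 3 tofogliflozin mice were above all 3 diet mice and lay closer together. The means were 6.61 ± 0.191 FPKM with tofogliflozin and 5.08 ± 0.841 FPKM on the diet (SD, n = 3 each). The log2 change was 0.33 ± 0.11 (SE), with a 95% interval of 0.08 to 0.59, an unadjusted p of 0.0174 and an adjusted p of 0.259 (limma). It stayed above 0 in all 15 other ways of processing, between 0.26 and 0.44, with adjusted p from 0.233 to 0.569 (limma). The lowest of these values came without diet replicate 3 (limma unadjusted p = 0.0597). Some markers of the collecting duct, another source of Ednrb, were also higher with tofogliflozin in these libraries. The genes given first were picked after their values were seen, and others did not follow them. Aqp2, the water channel of principal cells, had 114, 157 and 103 FPKM with tofogliflozin against 75.6, 98.6 and 94.2 FPKM on the diet. Scnn1g, a subunit of their sodium channel, had 17.9, 17.6 and 17.6 FPKM with tofogliflozin against 12.8, 13.5 and 12.8 FPKM on the diet (limma adjusted p = 0.0644). Aqp4, another water channel of principal cells, had 13.8, 10.4 and 13.3 FPKM with tofogliflozin against 4.83, 8.17 and 7.84 FPKM on the diet. None of these 3 genes overlapped between the groups, and none passed the adjusted threshold. Summed medulla markers, which include Aqp4, overlapped between the groups. Of these 6 genes, 4 were above 0 and 2 below. Fxyd4 had 33.0, 31.6 and 33.0 FPKM with tofogliflozin against 30.0, 51.5 and 43.8 FPKM on the diet, a log2 change of -0.32. Cldn8 and Slc14a2 overlapped between the groups, with log2 changes of 0.12 and -0.03. The part of collecting duct cells in the Ednrb difference was not tested.

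Ramp3 (chr11:6658521-6677475, plus strand, GRCm38), the accessory protein that with Calcrl forms an adrenomedullin receptor, had 16.2, 17 and 11.4 FPKM with tofogliflozin against 22.1, 16.3 and 21.0 FPKM on the diet. Diet replicate 2 lay inside the range of the tofogliflozin mice, and tofogliflozin replicate 3 was the lowest of all. The means were 14.9 ± 3.01 FPKM with tofogliflozin and 19.8 ± 3.09 FPKM on the diet (SD, n = 3 each). The log2 change was -0.40 ± 0.16 (SE), with a 95% interval of -0.77 to -0.02, an unadjusted p of 0.0405 and an adjusted p of 0.353 (limma). Without tofogliflozin replicate 3 it was -0.23 (limma unadjusted p = 0.133), without diet replicate 1 it was -0.32 (limma unadjusted p = 0.128) and without diet replicate 3 it was -0.35 (limma unadjusted p = 0.102). Exons of Ramp3 overlap those of the pseudogene Gm11978 on the opposite strand over 101 bases. The other genes of the receptor had estimates of the opposite sign. Calcrl, which binds adrenomedullin, had 2.60, 2.80 and 2.11 FPKM with tofogliflozin and 2.17, 2.55 and 1.28 FPKM on the diet, with the low value in diet replicate 3 and a log2 change of 0.24 (limma adjusted p = 0.610). Without that mouse it was 0.06, and without diet replicate 2 it was 0.38. Ramp2, its other accessory protein, had 17.8, 18.3 and 14.4 FPKM with tofogliflozin and 15.7, 16.6 and 13.5 FPKM on the diet, with a log2 change of 0.13 (limma adjusted p = 0.668). Without diet replicate 3 it was 0.05, without tofogliflozin replicate 2 it was 0.07, and without tofogliflozin replicate 3 it was 0.23. In both groups Ramp2 and Calcrl were lowest in replicate 3. Exons of Ramp2 overlap those of Vps25 on the same strand over 1103 annotated bases, so its value may hold fragments of Vps25.

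Of the 11 ligands, converting enzymes and other receptors of the endothelin and adrenomedullin system, 6 were tested and none passed the adjusted threshold. They split evenly, 3 above 0 and 3 below, with a median log2 change of -0.01. Edn1, the main endothelin of vessels, was under the limit for testing, with 0.634, 0.270 and 0.632 FPKM with tofogliflozin and 0.438, 0.382 and 0.754 FPKM on the diet. Adm, which encodes adrenomedullin, averaged 5.94 ± 0.999 FPKM with tofogliflozin and 7.13 ± 0.881 FPKM on the diet, a log2 change of -0.23 (limma adjusted p = 0.504). Adm2, a related peptide, averaged 1.56 ± 0.421 FPKM with tofogliflozin and 0.856 ± 0.455 FPKM on the diet, a log2 change of 0.48 (limma adjusted p = 0.385). Adm and Adm2 overlapped between the groups.

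The remaining receptors and surface glycoproteins did not separate the groups. Eng, the coreceptor of BMP9 and TGF-beta, had 31.6, 29.9 and 21.3 FPKM with tofogliflozin against 28.8, 27.9 and 27.6 FPKM on the diet. Tofogliflozin replicate 3 stood well below the other mice, and without it the log2 change of Eng was 0.12, against -0.05 with it. Robo4, a receptor that stabilises vessels, averaged 5.51 ± 0.282 FPKM with tofogliflozin and 6.23 ± 0.493 FPKM on the diet, with a log2 change of -0.15 (limma adjusted p = 0.528). The groups overlapped only through diet replicate 3. Clec14a, a C-type lectin of vessels, averaged 2.54 ± 0.175 FPKM with tofogliflozin and 2.27 ± 0.348 FPKM on the diet. Mmrn2, a matrix glycoprotein that binds Clec14a, averaged 6.25 ± 0.596 FPKM with tofogliflozin and 6.55 ± 0.529 FPKM on the diet. Egfl7, a secreted endothelial factor whose gene also hosts miR-126, had 31.8, 33.9 and 27.6 FPKM with tofogliflozin and 33.7, 28.7 and 31.7 FPKM on the diet, with a log2 change of -0.01 and an interval of -0.24 to 0.21. Vwf had 0.325, 0.241 and 0.193 FPKM with tofogliflozin and 0.312, 0.284 and 0.162 FPKM on the diet, from about 12 to 29 fragments a library.

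The BMP-ALK1 list of 13 genes holds ligands and receptors besides genes downstream of Eng. Of the 13, 11 were tested, 8 above 0 and 3 below, with a median log2 change of 0.11. None passed the adjusted threshold. Id1, a direct BMP target, had 45.9, 66.6 and 71.4 FPKM with tofogliflozin against 43.2, 46.1 and 27.1 FPKM on the diet. Tofogliflozin replicate 1 lay just under diet replicate 2, and the log2 change was 0.66 (limma adjusted p = 0.267). Smad6, an inhibitor of the pathway that BMP induces, averaged 4.23 ± 0.247 FPKM with tofogliflozin and 3.38 ± 0.445 FPKM on the diet without overlap, a log2 change of 0.26 (limma adjusted p = 0.363). Among 13 Notch genes, 10 were tested, 6 above 0 and 4 below, with a median log2 change of 0.05 and none past the adjusted threshold. Dll1, a Notch ligand, averaged 2.36 ± 0.266 FPKM with tofogliflozin and 3.45 ± 0.538 FPKM on the diet without overlap, a log2 change of -0.40 (limma adjusted p = 0.236). Jag2, another Notch ligand, averaged 2.14 ± 0.165 FPKM with tofogliflozin and 1.62 ± 0.277 FPKM on the diet, also without overlap and with a log2 change of 0.27 (limma adjusted p = 0.423).

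The genes of capillary structure and nitric oxide were led by Plvap, with 85, 86.0 and 66.2 FPKM in tofogliflozin cortex against 76.3, 72.7 and 73.6 FPKM in diet cortex. Tofogliflozin replicates 1 and 2 were the highest of the 6 mice and replicate 3 the lowest, and the log2 change was 0.08 (limma adjusted p = 0.795). Without tofogliflozin replicate 3 it was 0.20 (limma unadjusted p = 0.0361), and without tofogliflozin replicate 1 or 2 it was 0.02. Ehd3, an endocytic protein that in the mouse kidney marks glomerular capillaries, had 13.6, 14.5 and 11.7 FPKM with tofogliflozin and 12.9, 12.0 and 12.2 FPKM on the diet, with the same order of the tofogliflozin mice and a log2 change of 0.09. Rasip1, a Rap and Ras effector needed for vessel lumens, had 5.84, 5.72 and 4.02 FPKM with tofogliflozin and 5.88, 4.95 and 4.78 FPKM on the diet. Its exons overlap those of Izumo1 on the same strand over 654 bases. Nos3, the endothelial nitric oxide synthase, had 2.82, 2.62 and 2.42 FPKM with tofogliflozin against 2.12, 2.35 and 2.28 FPKM on the diet. The groups did not overlap, the nearest mice were 0.0615 FPKM apart, and the log2 change was 0.15 (interval -0.09 to 0.39 at 95%, adjusted p = 0.578 by limma). Its values rest on about 69 to 120 fragments a library. Exons of Nos3 overlap those of Atg9b on the opposite strand, and no source used here says whether the authors' counting used strand.

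In the list of nitric oxide signalling and vascular tone, which holds Nos3, 9 of 13 genes were tested. None passed the adjusted threshold, 7 were above 0 and 2 below, and the median log2 change was 0.11. Groups did not overlap in 4 genes, all higher with tofogliflozin (44.4% of the list, against 18.5% of all genes tested and 9.63% in that direction). The member Nos3 is among them. The list is small and was chosen with earlier results of these data known, so the share is no result about it. Cav1, the caveolar protein that binds and restrains Nos3, had 15.9, 15.3 and 15.9 FPKM with tofogliflozin against 11.6, 12.7 and 9.31 FPKM on the diet, a log2 change of 0.46 (interval 0.21 to 0.72 at 95%, adjusted p = 0.144 by limma). Ddah2, which breaks down an inhibitor of nitric oxide synthases, had 10.97, 10.97 and 9.74 FPKM with tofogliflozin against 7.56, 7.84 and 8.72 FPKM on the diet, a log2 change of 0.36 (limma adjusted p = 0.163). Both genes were higher in each of the 3 tofogliflozin mice than in any diet mouse, and both are also made by cells other than endothelium.

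Other endothelial surface genes numbered 26, of which 24 were tested. None passed the adjusted threshold, and 15 were above 0 and 9 below, with a median log2 change of 0.10. Groups did not overlap in 9 of them (37.5%, against 18.5% of all genes tested), 8 higher and 1 lower with tofogliflozin (9.63% and 8.86% of all genes). This list, too, was chosen with earlier results of these data known, so the share is no result about it. Cav1 is counted here and in the nitric oxide list. Cav2, the partner of Cav1 in caveolae, had the lowest adjusted p of the 8 pathway lists. It had 13.7, 12.9 and 14.4 FPKM with tofogliflozin against 9.53, 11 and 9.87 FPKM on the diet, a log2 change of 0.40 ± 0.08 (SE, interval 0.21 to 0.59 at 95%, adjusted p = 0.10 by limma). Over the 8 pathway lists together, without the members, 88 of 115 genes were tested and none passed the adjusted threshold. Their groups did not overlap in 23.9%, against 18.5% of all genes, with 17 genes higher and 4 lower with tofogliflozin (9.63% and 8.86% of all genes). The median log2 change was 0.04, against -0.00 for all genes. Because of how the lists were chosen, these values are a description and no test.

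**Figure D3:**
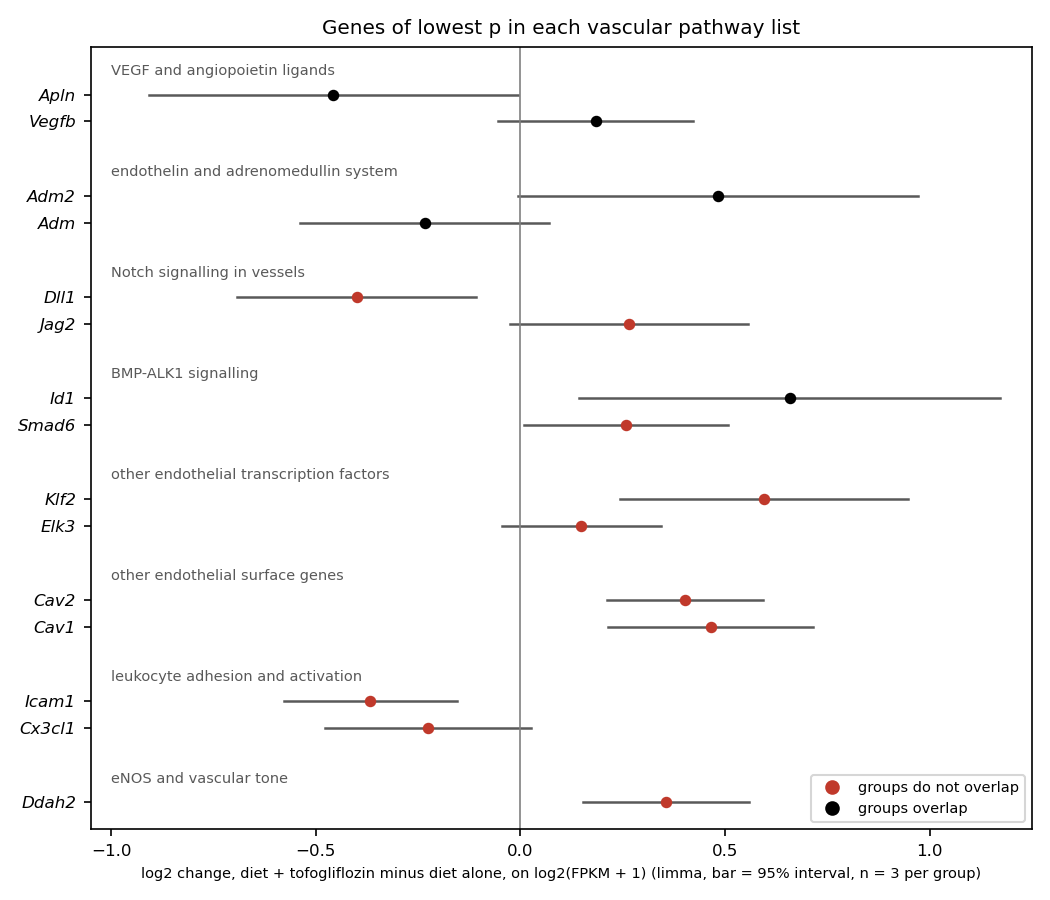
Log2 change, tofogliflozin minus diet on the log2(FPKM + 1) scale (x axis), of the genes with the lowest p in each of 8 vascular pathway lists (y axis); points are limma estimates, bars 95% intervals, n = 3 mice per group, and red points mark genes whose groups did not overlap. Cav1, Cav2, Ddah2 and Klf2 lie right of 0 and Dll1 and Icam1 left of it, and none passed the adjusted threshold.

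Among the 5 transcription factors of the set, Erg, Fli1, Sox17 and Tal1 were low, and Sox18 averaged 6.58 ± 2.02 FPKM (SD over 6 libraries). Sox18 (chr2:181669836-181671640, minus strand, GRCm38), which acts in vessel and lymphatic development, had the lowest log2 change of all members. It had 5.95, 5.63 and 4.11 FPKM in tofogliflozin mice against 7.44, 10.1 and 6.30 FPKM in diet mice. Each tofogliflozin mouse was below each diet mouse, and the highest and the lowest library were 2.45-fold apart, the widest range of any member. The means were 5.23 ± 0.980 FPKM with tofogliflozin and 7.94 ± 1.92 FPKM on the diet (SD, n = 3 each). The log2 change was -0.51 ± 0.17 (SE), with a 95% interval of -0.91 to -0.11, an unadjusted p of 0.0186 and an adjusted p of 0.267 (limma). The value rests on about 58 to 130 fragments a library. Without diet replicate 2, which had the highest Sox18 and the highest leukocyte markers, the log2 change was -0.35 (limma unadjusted p = 0.0556), and without tofogliflozin replicate 3 it was -0.38 (limma unadjusted p = 0.0668). The part of leukocytes in it was not tested.

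Sox17, a SOX factor of arteries, had 1.97, 3.05 and 2.39 FPKM with tofogliflozin and 1.87, 2.13 and 1.80 FPKM on the diet. Its estimate, a log2 change of 0.23 (limma adjusted p = 0.529), had the opposite sign to that of Sox18, and the groups overlapped through tofogliflozin replicate 1. Without tofogliflozin replicate 2 the log2 change of Sox17 was 0.11. The ETS factor Erg had 3.70, 2.59 and 3.30 FPKM with tofogliflozin and 3.06, 3.73 and 3.41 FPKM on the diet, with a log2 change of -0.07. Fli1, an ETS factor shared with leukocytes, had 2.71, 1.98 and 1.93 FPKM with tofogliflozin and 1.93, 2.83 and 1.85 FPKM on the diet, with a log2 change of 0.01. Each group had a single high Fli1 value, on the diet again in replicate 2. Tal1, a bHLH factor of blood and endothelium, lay under the limit for testing with 0.565, 0.490 and 0.623 FPKM with tofogliflozin and 0.438, 0.435 and 0.429 FPKM on the diet, from about 14 to 24 fragments a library. Its groups did not overlap, and no fold or test is given for it.

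Of 20 other transcription factors of endothelium, 14 were tested, 9 above 0 and 5 below, with a median log2 change of 0.03 and none past the adjusted threshold. Klf2, which shear stress induces in endothelium and which raises Nos3, had 15.4, 12.5 and 12.4 FPKM with tofogliflozin against 10.9, 8.03 and 7.0 FPKM on the diet. All tofogliflozin mice were above all diet mice, and the log2 change was 0.60 (interval 0.24 to 0.95 at 95%, adjusted p = 0.179 by limma). Elk3, an ETS family repressor, averaged 5.10 ± 0.256 FPKM with tofogliflozin and 4.5 ± 0.0665 FPKM on the diet without overlap, a log2 change of 0.15 (limma adjusted p = 0.505). In the list of leukocyte adhesion, 7 of 10 genes were tested, 4 above 0 and 3 below, and none passed the adjusted threshold. Icam1, which holds leukocytes to activated endothelium and is also made by tubule cells, had 8.72, 7.42 and 8.73 FPKM with tofogliflozin against 10.7, 11.8 and 10.4 FPKM on the diet. Its groups did not overlap, with a log2 change of -0.37 (interval -0.58 to -0.15 at 95%, adjusted p = 0.171 by limma). Cx3cl1, the membrane chemokine fractalkine, averaged 24.8 ± 3.67 FPKM with tofogliflozin and 29.0 ± 1.1 FPKM on the diet, a log2 change of -0.23 (limma adjusted p = 0.431). Vcam1, another leukocyte ligand, averaged 3.45 ± 0.818 FPKM with tofogliflozin and 3.48 ± 1.31 FPKM on the diet, a log2 change of 0.02 with an interval of -0.52 to 0.55. Leukocyte markers were lower in tofogliflozin mice on average, 86.0 ± 7.23 FPKM against 124 ± 47.4 FPKM on the diet. Diet replicate 2 was the highest at 176 FPKM, and diet replicate 3, at 82.8 FPKM, lay inside the range of the tofogliflozin mice. The part of leukocytes in the Icam1 difference was not tested.

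Across mice, most of the members' lowest values stood in replicate 3 of the groups. Summed over the 32 genes, they came to 424, 422 and 360 FPKM in tofogliflozin mice and 408, 402 and 385 FPKM in diet mice. The means were 402 ± 36.3 FPKM with tofogliflozin and 398 ± 12.0 FPKM on the diet (SD, n = 3 each), and replicate 3 was the lowest in each group. The median deviation of the members from their own mean was 0.08, 0.05 and -0.09 log2 units in tofogliflozin mice and -0.01, 0.02 and -0.06 in diet mice. Of the 32 genes, 11 had their lowest value in tofogliflozin replicate 3 and 11 in diet replicate 3, which leaves 10 for the other 4 libraries. The same count was not made over all genes. The median deviation of all genes was between -0.01 and 0.01 in every library. As a share of the total FPKM, the members made up 0.0704%, 0.0669% and 0.0603% in tofogliflozin mice and 0.0645%, 0.0710% and 0.0619% in diet mice. Podocyte markers did not share the low values of replicate 3, with 132, 137 and 137 FPKM in tofogliflozin mice and 131, 122 and 135 FPKM in diet mice.

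**Figure D4:**
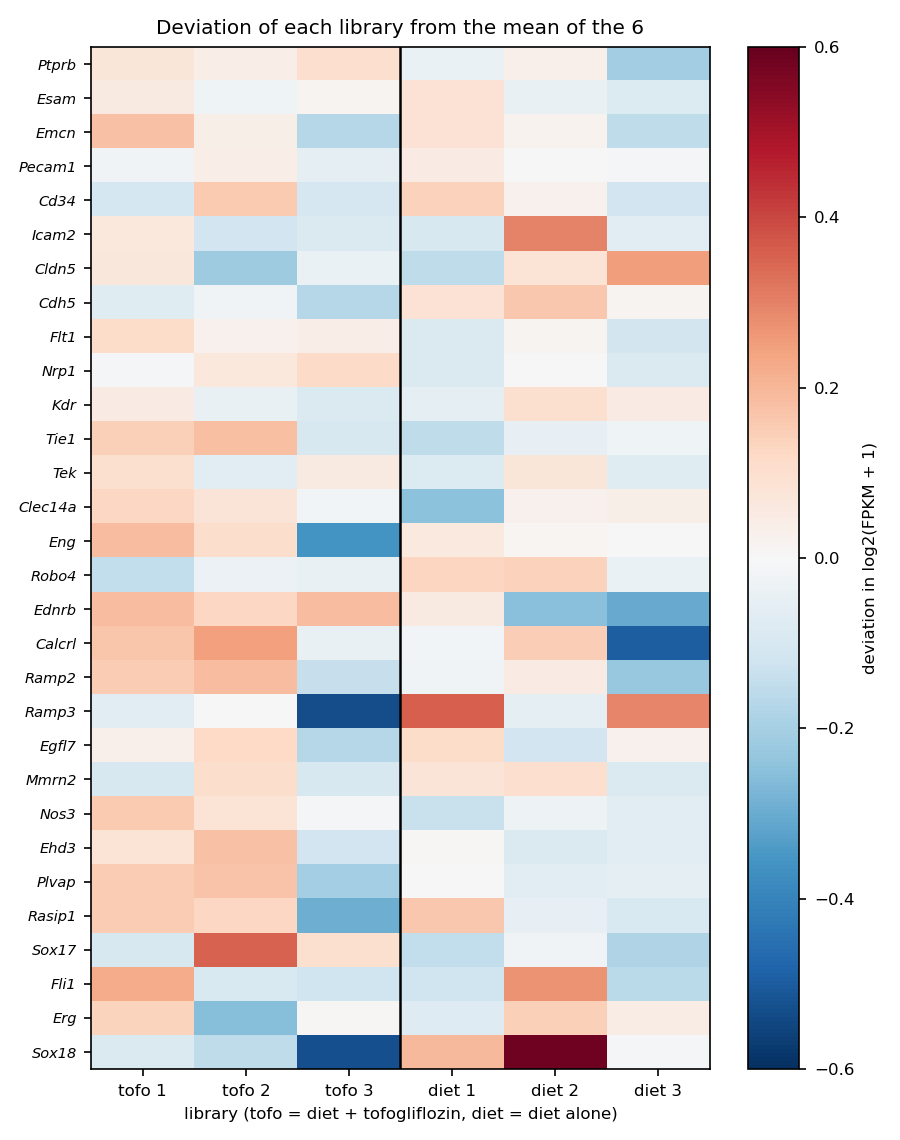
Deviation of each library from the mean of the 6 libraries in log2(FPKM + 1) (colour) for the 30 tested endothelial genes (rows), with the tofogliflozin mice left and the diet mice right (columns). Blue prevails in replicate 3 of both groups, whose median deviations were -0.09 and -0.06, and single genes stand apart, such as Sox18 in diet replicate 2.

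The spread of the members among mice was close to that of all genes. Over the 6 libraries the coefficient of variation of the tested members had a median of 9.99%, against 10.7% for all genes tested, and ran from 2.80% for Pecam1 to 30.6% for Sox18. The SD of FPKM was larger with tofogliflozin in 15 members and larger on the diet in 15. Eng and Plvap varied more among tofogliflozin mice, with SDs of 5.48 and 11.2 FPKM against 0.626 and 1.88 FPKM on the diet. Ednrb, Ptprb and Sox18 varied more among diet mice.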

How the data were processed

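RNA of 6 renal cortex libraries (3 per group) was sequenced from kits that keep strand, per the labels' protocols. The authors deposited 1 table of FPKM values per library, with 24346 gene symbols. Per the submitters' processing notes, Cuffdiff 2.2.1, TopHat2 2.1.1, SAMtools 0.1.18 and Bowtie2 2.2.8 were used with build mm10. No source used here gives the annotation, whether counting was by strand, or how libraries were normalized.

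The 12248 genes that reached 1 FPKM in 3 or more libraries were transformed to log2(FPKM + 1), which understates changes of low genes. A two-sided moderated test (limma 3.58.1, R 4.3.3, trend with mean level) compared the groups. P-values were adjusted over all 12248 genes by Benjamini-Hochberg, and the threshold was 0.05. FPKM are not counts, so no count model was used. Depth was estimated from the steps between values below 0.3 FPKM. These totals are approximate. The fit was also run on simulated data with changes placed only in genes of higher level, so that run does not cover the low members.

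Positions come from the GENCODE M21 annotation and promoters from RefSeq, both on GRCm38, the assembly that mm10 names. Exons of 9 members overlap another annotated gene: Cd34, Nrp1, Eng, Ramp2, Ramp3, Egfl7, Rasip1, Nos3 and Sox17. Their values are uncertain to that extent.

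The members and lists were chosen with earlier results of these data known. All 32 members are described. From each pathway list the 2 genes with the lowest p are named, besides Vegfa, Angpt1, Edn1, Adm, Klf2, Icam1 and Vcam1. Alternatives changed the pseudocount, filter, scaling, trend, library weights and replicate block, or left out each library in turn with the genes tested kept. In groups of 3, an exact permutation test of a single gene cannot go below p = 0.1.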

Additional observations from a re-analysis of the deposited data

How the results depend on the processing

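No member passed the adjusted threshold under any of the 15 alternatives. The number of members with a log2 change above 0 was 16 of 30, and between 13 and 20 when 1 library was left out. Their median of 0.02 then lay between -0.02 and 0.08. Under the filter of 5 FPKM, 11 of the 24 members tested were above 0. With the replicate block, 16 members were above 0 with a median of 0.02. The correlations of same-numbered libraries' deviations were -0.05, -0.06 and 0.05, so the numbers are not taken to pair the mice.

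The direction of 9 members with changes near 0 turned when 1 library was left out, and the cause was not tested. The log2 change then ran from -0.120 to 0.0282 for Cd34, -0.0550 to 0.120 for Emcn, -0.103 to 0.142 for Fli1, -0.161 to 0.0337 for Erg, -0.0773 to 0.0661 for Egfl7, -0.149 to 0.122 for Eng, -0.0905 to 0.132 for Rasip1, -0.164 to 0.0332 for Icam2 and -0.00742 to 0.0781 for Esam. With equal FPKM totals Fli1 was at -0.00055. Over the 15 alternatives, Ednrb kept an unadjusted p under 0.05 in 14, Sox18 in 13 and Ramp3 in 10 (limma).

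The number of genes called among all genes was 31. It was 1 with no filter, 20 with the 5 FPKM filter, 123 with array weights, 26 with the replicate block and between 2 and 66 with 1 library left out. The median log2 change of all genes lay between -0.01 and 0.01 under each scaling. Depth limits the low members: Calcrl, Cldn5, Clec14a, Erg, Fli1, Icam2, Nos3, Sox17 and Sox18 rest on about 47 to 130 fragments a library, and Vwf and Tal1 on fewer. Strand and normalization are unknown, and 3 mice a group leave intervals that include moderate changes.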
